A study of Mus musculus with 69 samples.

Results

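Memory CD8+ T cells kept without cytokine were compared between WT mice and mice that retain a single allele of Stat5a or Stat5b. The libraries were chosen by their column names and sample labels as every WT, AAB and BBA library of central memory (Tcm) and effector memory (Tem) CD8+ cells in the condition without cytokine, which gave 12 of the 69 samples of the series, 2 per genotype and cell state. Each genotype thus had 4 libraries, 2 of Tcm and 2 of Tem, and all comparisons of genotypes used both states with the state as a covariate.

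WT mice carried all alleles (Stat5a+/+ Stat5b+/+). AAB mice (Stat5a-/- Stat5b+/-) kept 1 allele of Stat5b, and BBA mice (Stat5a+/- Stat5b-/-) kept 1 allele of Stat5a. Both mutants also carried a chromosome on which the whole Stat5a and Stat5b region was deleted. The deletions were in the germline of adult C57BL/6 mice, so that every tissue was deficient and effects that arise outside the T cell are part of each difference. Cells were sorted from pooled lymph nodes and spleen by high CD44 together with high (Tcm) or low (Tem) CD62L, and the labels call the sorted cells Memory and Effector. The labels describe these cells as cultured without cytokine, whereas the study's methods describe them as taken directly from the animal, and the sources used here do not settle which. The labels do not say whether libraries that share a replicate number come from the same mouse, nor whether the Tcm and Tem libraries of 1 number do, so the p-values below measure the spread between these libraries, which may be technical in part.

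STAT5A and STAT5B are closely related transcription factors that JAK kinases activate downstream of receptors with the common gamma chain, which include those for IL-15, IL-7 and IL-2. In T cells of the CD8 lineage they drive survival genes such as Bcl2 and feedback inhibitors such as Cish, and IL-15 is known for maintaining the memory population. Loss of either paralog therefore lowers a shared pool of activity, and the comparison of AAB with BBA sets 1 remaining allele of the one paralog against 1 of the other.

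The libraries held 7010404 to 25612758 counts on genes, and the median was 14857950 in WT, 17363926 in AAB and 13714459.5 in BBA. Levels are given as CPM, the counts scaled to a common library total after TMM normalization, in the order Tcm 1, Tcm 2, Tem 1 and Tem 2. Genes that define CD8+ T cells (Cd3d, Cd3e, Cd3g, Cd8a and Cd8b1) summed to 3365 to 4723 CPM in every library, CD4 lineage markers to 19.8 to 63.2 and B cell markers to 99.2 to 440.5. Myeloid markers, of which 9 of 10 were in the table, summed to 48.3 to 96.1 CPM in WT, 43.0 to 172 in AAB and 45.5 to 220.2 in BBA, and 4 libraries stood above every WT library: BBA Tem 1 (220.2), AAB Tcm 2 (172), AAB Tem 2 (145) and BBA Tcm 1 (128). NK cell markers, a list that includes Gzma, summed to 18.5 to 59.0 CPM. Of these, Klra8 and Klra4 were at 0 in all 12 libraries and Ncr1 reached at most 1.78 CPM. Gzma alone held 46.5 of the 52.95 CPM in WT Tem 1 and 51.9 of the 59.0 CPM in WT Tem 2. In sorted bulk samples, a gene that is lower because fewer cells express it and one that is lower because each cell holds less RNA cannot be told apart.

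Both targeted genes were lower than WT in every mutant library and ranked the genotypes as the labels do, although Stat5b reads remained in BBA. Stat5a was at 75.7, 83.4, 67.7 and 82.4 CPM in WT, at 2.99, 3.39, 2.66 and 1.98 in AAB, and at 42.6, 43.0, 34.5 and 34.6 in BBA. The genotypes did not overlap, and BBA lay close to the middle of the WT level. Against WT, Stat5a fell by 4.70 on the log2 scale in AAB (SE 0.11, edgeR quasi-likelihood adjusted p = 3.72e-10) and by 0.91 in BBA (SE 0.09, edgeR adjusted p = 0.000133).

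Stat5b was at 178, 220.01, 191 and 212 CPM in WT, at 84.3, 97.98, 76.3 and 77.1 in AAB, and at 47.2, 68.9, 47.7 and 58.9 in BBA. Again no library of one genotype reached another genotype's range, but AAB and BBA lay near each other. Stat5b fell by 1.17 in AAB (SE 0.12, edgeR adjusted p = 0.000971) and by 1.75 in BBA (SE 0.12, edgeR adjusted p = 2.83e-05). The difference of 0.58 between AAB and BBA (SE 0.12, edgeR adjusted p = 0.0488) was below the 1.5-fold limit. BBA libraries thus still held reads assigned to Stat5b although the genotype has no intact allele of it, and the source of these reads was not tested. As Stat5a and Stat5b share sequence, counting may have divided or dropped reads between them.

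**Figure D1:**
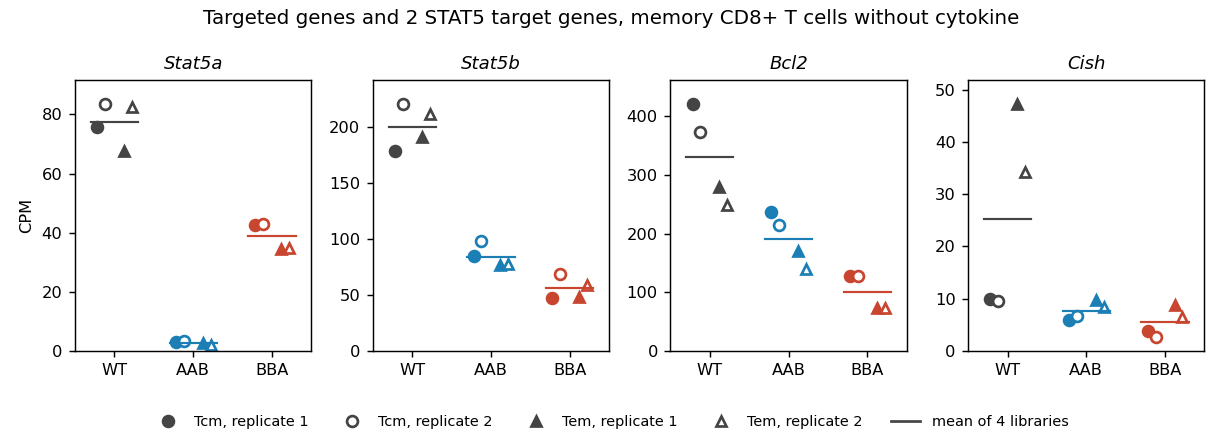
Level of the targeted genes Stat5a and Stat5b and of the STAT5-responsive genes Bcl2 and Cish in CPM (y axis) in the 12 memory CD8+ libraries by genotype, with circles for Tcm, triangles for Tem, filled symbols for replicate 1, open symbols for replicate 2 and a bar at the mean of 4 libraries. Stat5a is near 0 in AAB and intermediate in BBA, Bcl2 is lower in BBA than in AAB and lower in AAB than in WT within both states, and the WT level of Cish is 34.3 to 47.3 CPM in Tem against 9.46 to 9.89 in Tcm.

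BBA differed from WT in the largest number of genes. Of 10375 genes tested, 410 (3.95%) differed by more than 1.5-fold at an adjusted p under 0.05, 253 (2.44%) higher and 157 (1.51%) lower in BBA. AAB differed from WT in 122 genes (1.18%), 74 (0.713%) higher and 48 (0.463%) lower. Between the mutants 87 genes (0.839%) differed, 50 (0.482%) higher and 37 (0.357%) lower in AAB. At an unadjusted p under 0.05 by edgeR there were 2412, 1423 and 1312 of the 10375 genes in BBA against WT, AAB against WT and AAB against BBA. The comparisons of AAB and of BBA with WT share the WT libraries and are not independent.

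These counts moved with how the 2 states and the replicate numbers were handled. Same-numbered libraries deviated together from their group means, and with the replicate number as a block within each state the counts were 724, 355 and 218 for BBA against WT, AAB against WT and AAB against BBA. Where the Tcm and Tem counts of a replicate number were summed, so that each genotype had only 2 values, 27, 2 and 5 genes remained past the limits. The labels leave unsaid whether the Tcm and Tem libraries of 1 number are from 1 mouse. If they are, the summed counts are the ones with independent replicates. Replicate deviations correlated at 0.370 to 0.629 between Tcm and Tem of the same genotype (3 pairs), and at 0.0455 to 0.3645 where both genotype and state differed (6 pairs). Whether these libraries share a mouse was not tested.

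**Figure D2:**
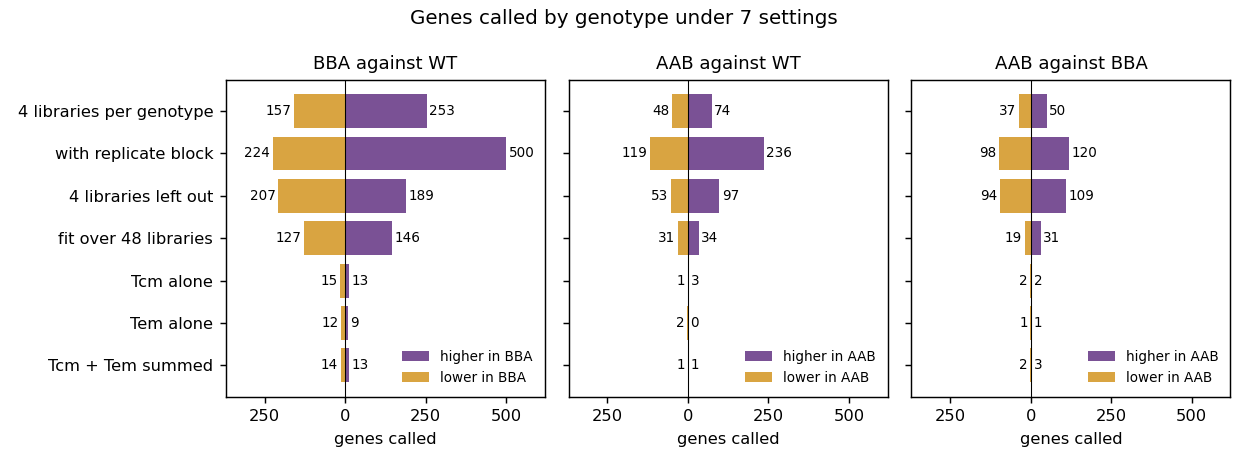
Number of genes called (x axis, to the right higher and to the left lower in the first genotype of each panel's title) in the 3 comparisons of genotypes under 7 settings (y axis). With 4 libraries per genotype 410, 122 and 87 genes were called, with a replicate block 724, 355 and 218, and with Tcm and Tem summed 27, 2 and 5.

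Among the genes that STAT5 is known to regulate, Bcl2 and Cish were lower in both mutants. Bcl2, the inhibitor of apoptosis, was at 421, 373, 280 and 249 CPM in WT, at 236, 214, 170 and 140 in AAB, and at 127, 127, 72.9 and 72.4 in BBA. WT, AAB and BBA formed 3 separate ranges in descending order. Bcl2 fell by 1.65 in BBA (SE 0.08, edgeR adjusted p = 1.73e-06) and by 0.70 in AAB (SE 0.08, edgeR adjusted p = 0.00157), and it was 0.95 higher in AAB than in BBA (SE 0.08, edgeR adjusted p = 0.000167). With the Tcm and Tem counts summed, its call in BBA was kept and those in AAB were not. By edgeR no other member of the 12 tested in the BCL-2 family passed in any of the 3 comparisons, among them the inhibitors Mcl1 (0.04 in BBA, 0.01 in AAB) and Bcl2l1 (-0.48 and -0.31) and the death driver Bcl2l11 (0.26 and 0.22).

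Cish encodes CIS, an inhibitor of cytokine receptor signalling that STAT5 induces. It was at 9.89, 9.46, 47.3 and 34.3 CPM in WT, at 5.85, 6.69, 9.69 and 8.29 in AAB, and at 3.87, 2.68, 8.79 and 6.46 in BBA. Every mutant Tem library lay under both WT Tem libraries, and BBA overlapped no WT library, whereas AAB Tem 1 lay between the WT Tcm libraries. Cish fell by 1.95 in BBA (SE 0.27, edgeR adjusted p = 0.00161) and by 1.32 in AAB (SE 0.27, edgeR adjusted p = 0.0285). Within states the AAB difference was -0.56 in Tcm and -2.06 in Tem and the BBA difference -1.50 and -2.27, and neither change between states passed the interaction test. The AAB call was lost when either WT Tem library or either AAB Tem library was left out. By edgeR and by DESeq2 Cish was the sole gene of 7 tested SOCS family members to pass, with Socs1 at -0.20 in BBA and Socs3 at 0.31.

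Cish is a known STAT5 target whose start site holds matches to the motif that STAT dimers bind, and its sequence is shown for that reason beside Bcl6, which moved the opposite way. The motif searched was GAS (TTCNNNGAA, its own reverse complement), and 8.3% of 32851 mouse promoters in the RefSeq table for GRCm38.p6 hold it. Of the 110 genes named by rule, 74 have an entry in that table. Among these, Fas, Gzmb, Gzmm, Igtp, Lta, Mcm5, Oas1a and Tnfrsf25 also hold a match, and Bcl6 holds further matches that are not shown. Capitals mark the motif, chr9:107296654-107296683 on the plus strand for Cish and chr16:23981352-23981381 on the minus strand for Bcl6, each written 5′ to 3′ on the gene's strand. A match describes letters only and is no evidence of binding.
Cish: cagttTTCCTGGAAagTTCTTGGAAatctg
Bcl6: atcgactacgTTCCGGGAAtgagagggctg

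Upstream of STAT5, 1 of 10 tested receptor chains and kinases rose in BBA, beside 2.44% of all genes. Jak3, the kinase bound to the common gamma chain, was at 289, 398, 376 and 416 CPM in WT and at 419, 664, 491 and 568 in BBA, all above the highest WT library. It rose by 0.64 in BBA (SE 0.17, edgeR adjusted p = 0.0475), a call that 9 of the 12 fits without 1 library did not keep. Il2rb, the chain shared by the IL-2 and IL-15 receptors, gave -0.29 in BBA (SE 0.09, edgeR adjusted p = 0.0614) and 0.19 in AAB. Il7r gave 0.03 in BBA and 0.09 in AAB. By edgeR no PIM kinase or D cyclin of 5 tested passed (3, 2 and 2 at an unadjusted p under 0.05 in BBA, AAB and AAB against BBA), while DESeq2 called 1 lower in each mutant, with Pim1 at -0.69 in BBA and -0.86 in AAB, Pim2 at -0.11 and 0.14, and Ccnd2 at -0.34 and -0.01.

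Growth and division genes gave no call. None of 14 tested MYC and amino acid transporter genes, 15 glycolysis genes or 28 mitosis and S-phase genes passed in any comparison by edgeR or by DESeq2. At an unadjusted p under 0.05 by edgeR the 3 lists held 2, 4 and 1 genes in BBA against WT, 1, 4 and 0 in AAB against WT, and 1, 1 and 13 in AAB against BBA. Over all 10375 tested genes the counts in these comparisons were 2412, 1423 and 1312. Myc was at 176, 248, 123 and 174 CPM in WT and at 132, 210, 61.4 and 120 in BBA, a difference of -0.40 (SE 0.24, edgeR adjusted p = 0.342) with overlapping groups. The median difference of the mitosis and S-phase genes was 0.21 in BBA and -0.25 in AAB, beside medians over all tested genes of -0.00343 and -0.0113. For AAB against BBA the median of this list was -0.43, lower in AAB, beside -0.0122 over all tested genes.

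Inhibitory receptors and the Tox factors were the list with the largest share of calls in BBA. Of its 10 members, all tested, 8 rose in BBA, beside 2.44% of all genes called higher, and the list's median difference was 1.57. In AAB 2 members rose (0.713% of all genes), Lag3 and Tox2, with a median of 0.93. Between AAB and BBA no member passed by edgeR, 2 had an unadjusted p under 0.05 and DESeq2 called 1. Exhausted and chronically stimulated CD8+ T cells are known for high levels of these genes.

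Lag3, an inhibitory receptor that binds MHC class II, was at 12.4, 5.68, 40.3 and 23.9 CPM in WT, at 23.6, 21.4, 117 and 99.6 in AAB, and at 48.5, 29.1, 199.8 and 90.4 in BBA. Within each state both mutants lay above WT in all libraries, although mutant Tcm libraries overlapped WT Tem libraries. Lag3 rose by 2.28 in BBA (SE 0.30, edgeR adjusted p = 0.00109) and by 1.68 in AAB (SE 0.29, edgeR adjusted p = 0.0147), and the AAB call was lost without WT Tem 2.

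Tox2, an HMG-box transcription factor, was at 0.0867, 0.17, 2.88 and 1.88 CPM in WT, at 1.45, 1.69, 14.6 and 10.52 in AAB, and at 3.29, 1.79, 20.3 and 12.8 in BBA. Within each state no mutant library reached a WT library. Tox2 rose by 3.25 in BBA (SE 0.32, edgeR adjusted p = 0.000141) and by 2.71 in AAB (SE 0.32, edgeR adjusted p = 0.0016), and both calls were kept without any 1 library.

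The other 6 genes that rose in BBA were Havcr2, encoding TIM-3 (1.88, SE 0.32), Cd200, a ligand of an inhibitory receptor (1.62, SE 0.36), Tigit (1.52, SE 0.34), Ctla4 (1.06, SE 0.23), Tox (0.79, SE 0.22) and Btla (0.64, SE 0.10). BBA Tem 1 was the highest of the 12 libraries for Lag3, Tox2, Havcr2, Tigit, Ctla4, Cd200 and Tox. For Tigit it held 79.9 CPM against 29.99 in BBA Tem 2, 17.7 and 11.6 in WT Tem, and 41.7 and 32.05 in AAB Tem. Of the 8 genes only Btla had no overlap between the 4 WT libraries (49.95 to 62.7 CPM) and the 4 BBA libraries (69.9 to 101). Pdcd1, encoding PD-1, was at 6.16, 1.06, 22.5 and 10.8 CPM in WT and at 13.7, 4.98, 84.1 and 26.0 in BBA, a difference of 1.76 (SE 0.51, edgeR adjusted p = 0.0555). Entpd1, the ectonucleotidase CD39, gave -0.24 (SE 0.26).

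BBA Tem 1 also had the highest myeloid marker sum, with Lyz2 at 116 and Csf1r at 57.4 CPM against at most 26.6 and 9.09 in WT. Csf1r itself passed in BBA (2.05, SE 0.55, edgeR adjusted p = 0.0448), and the part of such cells in these differences was not tested beyond leaving libraries out. Without the 4 libraries of highest myeloid sums, an alternative chosen after the values were seen, 3 of the 8 calls remained (Lag3, Tox2 and Btla) and the median of the 10 genes was 0.78. Without WT Tem 2 the calls were Lag3, Tox2 and Havcr2, and with the Tcm and Tem counts summed 0 of the 10 passed by edgeR (9 at an unadjusted p under 0.05) with a median of 1.74, while DESeq2 on the 12 libraries called 9.

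**Figure D3:**
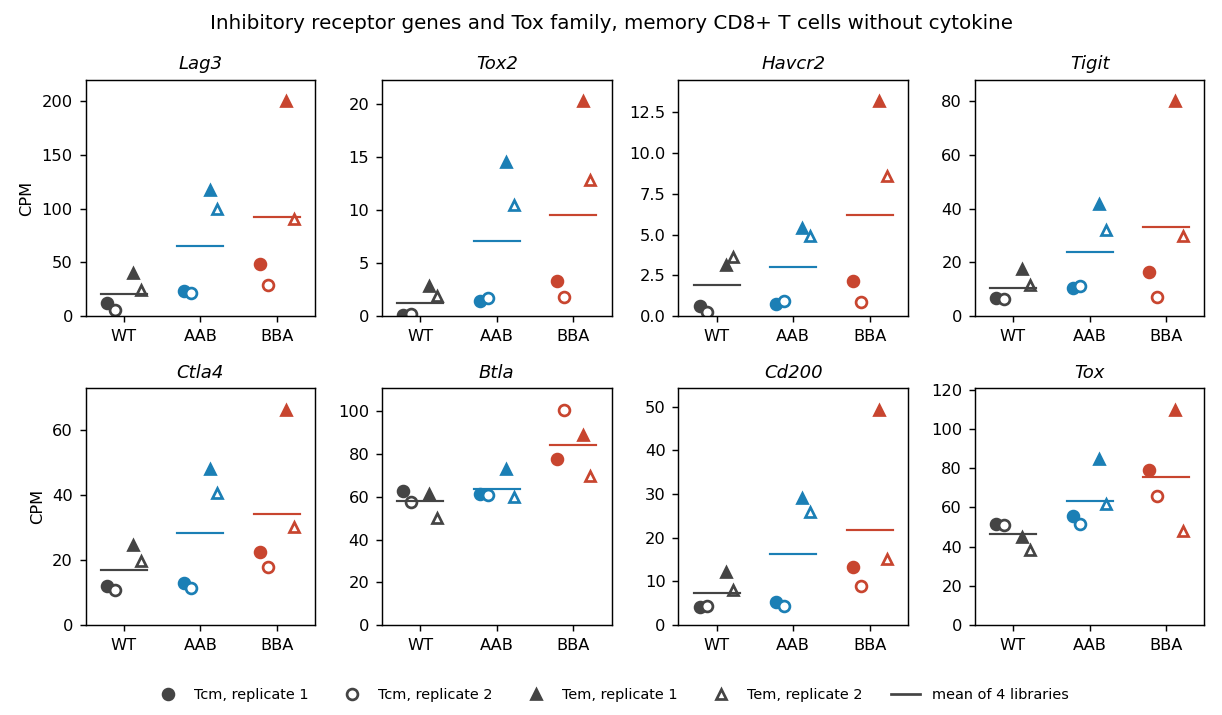
Level in CPM (y axis) of the 8 inhibitory receptor and Tox family genes called in BBA against WT, by genotype, with circles for Tcm, triangles for Tem, filled symbols for replicate 1, open symbols for replicate 2 and a bar at the mean of 4 libraries. BBA Tem 1 is the highest library in every panel but Btla, both mutants lie above WT within each state for Lag3 and Tox2, and Btla separates BBA (69.9 to 101 CPM) from WT (49.95 to 62.7).

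Of 29 tested transcription factors of effector, memory, naive and stem-like cells, 4 rose and 1 fell in BBA, beside 2.44% and 1.51% of all genes, and 1 fell in AAB, beside 0.463%. Bcl6, a zinc-finger repressor of memory and follicular T cells, was at 15.3, 18.8, 18.6 and 18.6 CPM in WT, at 19.2, 24.8, 25.1 and 29.0 in AAB, and at 43.6, 43.4, 49.6 and 34.9 in BBA. The 3 genotypes did not overlap, and AAB lay next to WT. Bcl6 rose by 1.36 in BBA (SE 0.12, edgeR adjusted p = 9.14e-05) and was 0.82 lower in AAB than in BBA (SE 0.12, edgeR adjusted p = 0.00635), while the AAB difference from WT, 0.54 (SE 0.12, edgeR adjusted p = 0.048), was below the 1.5-fold limit.

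Ikzf2, encoding Helios, was at 16.3, 10.4, 22.3 and 21.7 CPM in WT, at 11.4, 14.0, 18.9 and 24.005 in AAB, and at 33.6, 41.8, 51.4 and 42.6 in BBA. BBA stood above every library of the other genotypes, and WT and AAB shared 1 range. It rose by 1.40 in BBA (SE 0.15, edgeR adjusted p = 0.000326) and was 1.36 lower in AAB than in BBA (SE 0.15, edgeR adjusted p = 0.0011). Its WT comparison kept the call with the Tcm and Tem counts summed, as did that of Bcl6 and of Egr2, an immediate early factor also linked to anergy, which rose by 1.22 in BBA (SE 0.16, edgeR adjusted p = 0.000971). Of 20 tested immediate early genes Egr2 and Ier3, which fell by 0.97 (SE 0.24, edgeR adjusted p = 0.0295), were the 2 called in BBA, Egr2 was 0.76 lower in AAB than in BBA (SE 0.15, edgeR adjusted p = 0.0424), and the list's median, beside 2.44% of all genes higher and 1.51% lower in BBA, was -0.14 in BBA and -0.41 in AAB. The Egr2 call between the mutants was lost in 10 of 12 fits without 1 library, and that of Ier3 in 5.

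Myb (0.86, SE 0.16) and Sox4 (1.49, SE 0.40) rose in BBA, and Tbx21, encoding T-bet, fell by 0.82 (SE 0.18, edgeR adjusted p = 0.018). Tbx21 was at 75.6, 67.7, 129 and 107 CPM in WT and at 38.2, 25.8, 79.6 and 62.2 in BBA, so that the groups separated within each state and overlapped across states. The Tbx21 call was lost without WT Tem 1, and that of Sox4 in 9 of 12 fits without 1 library. Eomes, which gave 0.45 in BBA (SE 0.11) and 0.53 in AAB (SE 0.11), stayed below the 1.5-fold limit. In AAB, Hopx, a homeodomain cofactor of effector cells, fell by 1.15 (SE 0.21, edgeR adjusted p = 0.0166), with 145, 106, 140 and 104 CPM in WT and 41.9, 70.8, 38.9 and 57.3 in AAB. The Hopx groups did not overlap, and the call was lost without WT Tem 1, AAB Tcm 1 or AAB Tem 1.

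Of 11 tested Ly6 family and virtual memory surface genes, 2 fell in BBA (1.51% of all genes lower), 1 rose in AAB (0.713% higher) and 2 were higher in AAB than in BBA (0.482%), with a median of -0.04 in the last comparison. Ly6c2, which with Ly6c1 encodes the memory marker Ly6C, was at 302, 218, 222 and 186 CPM in WT, at 273, 207, 243 and 178 in AAB, and at 68.9, 103, 74.1 and 104 in BBA. BBA lay below all other libraries, whereas AAB and WT shared 1 range. Ly6c2 fell by 1.29 in BBA (SE 0.19, edgeR adjusted p = 0.00198) and was 1.34 higher in AAB than in BBA (SE 0.19, edgeR adjusted p = 0.00448). Ly6c1 gave -1.29 and 1.26, but the pair are near-identical paralogs between which reads could be split, so the 2 calls are not separate evidence.

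Ly6a, encoding Sca-1, rose in AAB by 1.45 (SE 0.22, edgeR adjusted p = 0.00637), from 69.5, 72.7, 69.4 and 101 CPM in WT to 229, 112, 297 and 169, and gave 0.65 in BBA (SE 0.22, edgeR adjusted p = 0.0955). Replicate 1 was the higher in both AAB states. Of 18 tested TNF superfamily genes, the death receptor Fas rose by 0.83 in BBA (SE 0.11, edgeR adjusted p = 0.00109) and Tnfrsf25, the receptor DR3, fell by 0.70 (SE 0.16, edgeR adjusted p = 0.0198), the latter lost in 4 of 12 fits without 1 library. Over all genes, 2.44% were called higher and 1.51% lower in BBA. Fas was at 20.6, 21.8, 20.8 and 24.5 CPM in WT and at 33.4, 41.4, 38.1 and 32.8 in BBA, without overlap.

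Of 22 tested homing receptors, 1 passed in each comparison, beside 3.95%, 1.18% and 0.839% of all genes in BBA against WT, AAB against WT and AAB against BBA, so that the list's share in BBA was near that of all genes. Ccr9, the receptor that directs T cells to the small intestine, rose by 1.75 in BBA (SE 0.42, edgeR adjusted p = 0.0269), with 23.2, 30.7, 10.2 and 47.8 CPM in WT and 79.2, 126, 40.2 and 111 in BBA. WT Tem 2 overlapped BBA Tem 1, and 6 of 12 fits without 1 library lost the call. S1pr5, a receptor for egress and circulation, fell by 1.45 in AAB (SE 0.27, edgeR adjusted p = 0.0177), from 32.9 and 30.9 CPM in WT Tem to 14.3 and 6.81, and from 3.90 and 3.44 in WT Tcm to 1.01 and 1.56, and the call was lost without either WT Tem library or without AAB Tem 2. Itga4, the integrin chain of VLA-4, was 0.91 lower in AAB than in BBA (SE 0.19, edgeR adjusted p = 0.0476), a call lost in 10 of 12 fits without 1 library. Gpr15, a receptor for homing to the colon that was named among the largest changes, fell in both mutants, by 2.68 in BBA (SE 0.49, edgeR adjusted p = 0.0072) and by 2.53 in AAB (SE 0.47, edgeR adjusted p = 0.0192), and the AAB call was lost in 5 of 12 fits without 1 library.

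None of 15 tested cytotoxic genes passed against WT in either mutant by edgeR (4 in BBA and 6 in AAB at an unadjusted p under 0.05), while DESeq2 called 2 in each. Differences in this list ran from -0.94 to 2.36 in BBA and from -1.55 to 1.08 in AAB. Prf1, encoding perforin, gave 0.12 in BBA and 0.47 in AAB, below the 1.5-fold limit. Gzmb was at 4.68, 2.59, 81.7 and 79.8 CPM in WT, at 2.07, 0.738, 29.8 and 15.5 in AAB, and at 6.43, 2.43, 56.6 and 34.3 in BBA. Both mutants were lower than WT in Tem, and AAB was lower in Tcm also, yet the AAB difference of -1.55 missed the threshold (SE 0.37, edgeR adjusted p = 0.0568). Markers of the effector state, a list that includes Gzmb, Gzma, S1pr5 and Tbx21, summed to 328.5 and 358 CPM in WT Tem, to 125 and 182 in AAB Tem, and to 159 and 228 in BBA Tem, and the part of a different mix of effector cells in these differences was not tested. Gzmm was 1.64 higher in AAB than in BBA (SE 0.30, edgeR adjusted p = 0.0228), a call lost in 5 of 12 fits without 1 library. Of 8 tested NK receptors, Klrd1, which encodes CD94, fell by 0.74 in BBA (SE 0.16, edgeR adjusted p = 0.0184) and Klra5, of the Ly49 family whose members share sequence, by 2.42 (SE 0.51, edgeR adjusted p = 0.0147) at no more than 6.16 CPM in any library, beside 1.51% of all genes lower. The Klrd1 call was lost without WT Tcm 1, WT Tem 1 or BBA Tcm 1. None of 16 tested genes of the T cell receptor complex and its coreceptors passed in any comparison by edgeR or DESeq2 (5, 3 and 2 at an unadjusted p under 0.05 by edgeR), although Cd6 (-0.55, SE 0.07) and Cd5 (-0.35, SE 0.08) had adjusted p-values of 0.000969 and 0.0176 by edgeR in BBA below the fold limit.

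Genes induced by type I interferon, which restrict viruses or tune the interferon response, were called mainly in AAB. Of 24 list members, all tested, 9 rose in AAB, beside 0.713% of all genes, with a median difference of 0.74. In BBA 1 rose, Oasl2, beside 2.44% of all genes, with a median of 0.10. In the comparison of AAB with BBA 4 were higher in AAB, beside 0.482% of all genes, with a median of 0.63.

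Ifi44 was at 6.94, 7.13, 3.74 and 6.67 CPM in WT, at 41.2, 17.3, 46.1 and 21.7 in AAB, and at 6.51, 3.70, 7.78 and 3.19 in BBA. All AAB libraries were above all others, replicate 1 highest, and WT and BBA overlapped. Ifi44 rose by 2.44 in AAB (SE 0.37, edgeR adjusted p = 0.00637), gave -0.12 in BBA (SE 0.38), and was 2.56 higher in AAB than in BBA (SE 0.37, edgeR adjusted p = 0.00635).

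Usp18, a protease that removes ISG15 and dampens interferon signalling, was at 27.1, 27.7, 21.6 and 21.5 CPM in WT, at 79.9, 49.2, 71.0 and 40.8 in AAB, and at 28.4, 31.0, 19.7 and 19.9 in BBA. AAB again stood apart from both other genotypes. Usp18 rose by 1.40 in AAB (SE 0.17, edgeR adjusted p = 0.00195) and was 1.30 higher in AAB than in BBA (SE 0.17, edgeR adjusted p = 0.0035). Dhx58, encoding the RNA sensor LGP2, rose by 0.64 in AAB (SE 0.10, edgeR adjusted p = 0.00601), gave -0.01 in BBA and was 0.66 higher in AAB than in BBA (SE 0.10, edgeR adjusted p = 0.00635).

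Dhx58 also lies near the Stat5 genes on chromosome 11, and it was the only one called in AAB among the 18 tested neighbours other than Stat5a and Stat5b, while none was called in BBA. Over all genes, 0.713% were called higher in AAB, and 3.95% were called in either direction in BBA. Of the other list members, Oas2 (1.94, SE 0.39), Oas1a (1.53, SE 0.35), Rsad2, encoding viperin (1.25, SE 0.20), Ifi27l2a (0.87, SE 0.19) and Rtp4 (0.85, SE 0.17) rose in AAB. Oasl2 rose in both mutants, by 2.72 in AAB (SE 0.46, edgeR adjusted p = 0.0126) and by 2.13 in BBA (SE 0.46, edgeR adjusted p = 0.0176). Mx1 was 1.03 higher in AAB than in BBA (SE 0.22, edgeR adjusted p = 0.0476). Without 1 library, 9 of 12 fits lost the call of Mx1, 8 those of Oas1a and of Ifi27l2a, 6 that of Oas2 and 5 that of Rtp4. The Oas genes are a family of related sequences whose reads counting could split.

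Among 14 tested interferon-induced GTPases, Gbp6 and Iigp1 rose in both mutants and Igtp in AAB, beside 2.44% of all genes called higher in BBA and 0.713% in AAB. The Iigp1 call was lost in 6 of 12 fits without 1 library in BBA and in 4 in AAB, and that of Igtp in 4. Gbp6 was at 29.8, 38.0, 41.2 and 48.4 CPM in WT, at 75.1, 59.2, 75.2 and 65.6 in AAB, and at 63.5, 77.7, 73.7 and 70.3 in BBA. Both mutants lay above WT and overlapped each other, with a rise of 0.91 in AAB (SE 0.11, edgeR adjusted p = 0.00215) and of 0.96 in BBA (SE 0.11, edgeR adjusted p = 0.000574). Gbp genes too are close paralogs.

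Matches to the core that interferon-activated factors bind stand near the start of 3 of these genes, which are shown for that reason. The motif searched was an ISRE-type repeat (GAAANNGAAA, on both strands, so that TTTCNNTTTC is the same motif on the other strand), and 3.44% of the 32851 promoters hold it. Gm11127, Gpr15, Socs1, Sycp1 and Tox2, named genes outside the interferon lists, hold it too. No match was found for Ifi44, Usp18, Dhx58 or Oas2, and named genes without a promoter entry could not be searched. Capitals mark the motif, which occurs as an overlapping pair in Oas1a. The windows lie in GRCm38.p6 at chr5:120907523-120907552 on the minus strand for Oas1a, chr12:26456553-26456582 on the minus strand for Rsad2 and chr11:58199512-58199541 on the plus strand for Igtp.
Oas1a: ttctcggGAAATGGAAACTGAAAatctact
Rsad2: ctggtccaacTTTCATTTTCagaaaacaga
Igtp: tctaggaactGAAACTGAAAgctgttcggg

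The interferon counts depended on the setting. With the replicate block, 14 list members rose in AAB and 13 were higher in AAB than in BBA. Without the 4 libraries of highest myeloid sums, both AAB libraries of replicate 2 and both BBA libraries of replicate 1, the counts were 17 and 14. Both counts then rest on AAB replicate 1 alone. The second sets it against BBA replicate 2 alone, so that genotype and replicate number cannot be told apart in it. With the Tcm and Tem counts summed 0 of 24 passed by edgeR in either comparison (19 and 13 at an unadjusted p under 0.05), at medians of 0.67 and 0.62, while DESeq2 on the 12 libraries called 15 and 12. Leaving out single libraries gave 5 to 13 members in AAB, the lowest without WT Tem 1.

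**Figure D4:**
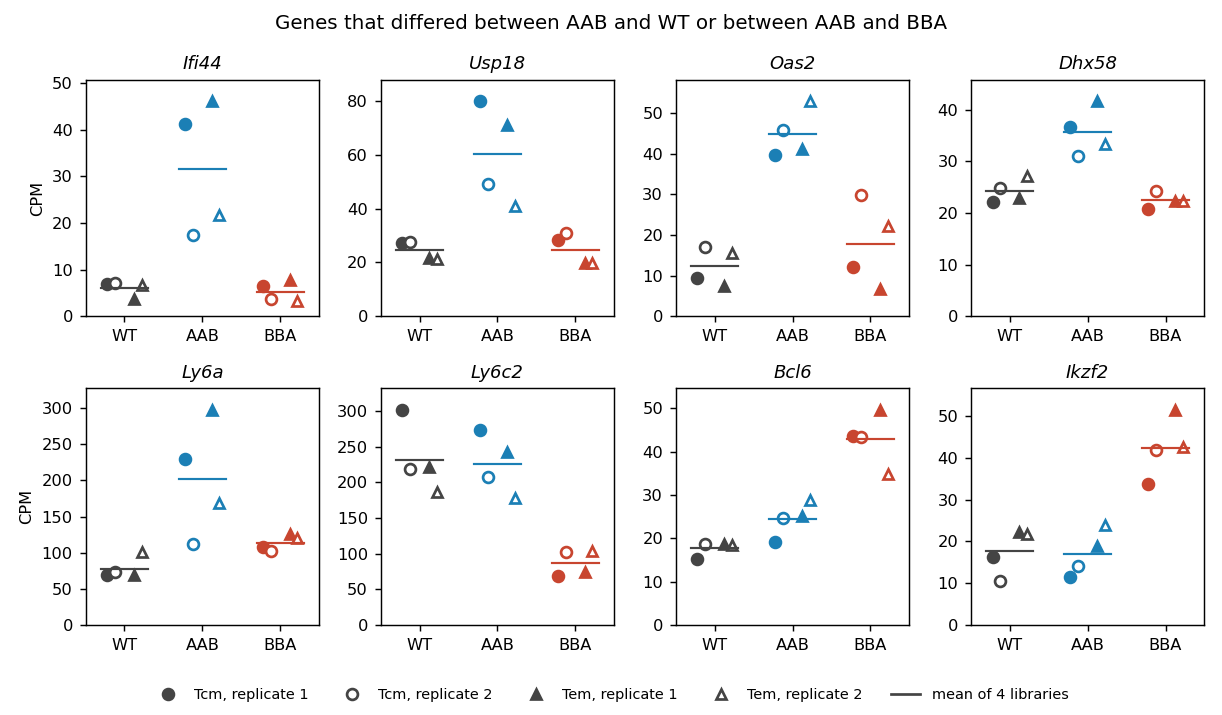
Level in CPM (y axis) by genotype of 8 genes that were called between AAB and WT or between AAB and BBA, with circles for Tcm, triangles for Tem, filled symbols for replicate 1, open symbols for replicate 2 and a bar at the mean of 4 libraries. Ifi44, Usp18, Oas2, Dhx58 and Ly6a are higher in AAB than in WT, whereas Ly6c2 is lower and Bcl6 and Ikzf2 are higher in BBA than in the other genotypes.

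Of 18 genes that the study itself displays for its RNA-seq, 3 rose and 2 fell in BBA (2.44% and 1.51% of all genes), 2 fell in AAB (0.463%), and 1 was higher in AAB than in BBA (0.482%); these were chosen on these samples and are not independent evidence.

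Beyond the lists, the largest changes with no overlap between groups included genes close to 0 in some libraries and high in others. Otog, encoding otogelin of the inner ear, was at 0.694, 0.764, 1.32 and 1.45 CPM in WT, at 2.29, 244, 3.35 and 136 in AAB, and at 297, 133, 250.1 and 110 in BBA. In AAB both libraries of replicate 2 were high and both of replicate 1 were low, and in naive cells AAB replicate 2 held 244 CPM against 0.545 in replicate 1. Otog was called in BBA (7.65, SE 1.49, edgeR adjusted p = 0.00998) and in AAB (6.58, SE 1.48, edgeR adjusted p = 0.045), and the AAB call was lost in 10 of 12 fits without 1 library.

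Rnaset2b showed the same division, with at most 0.0848 CPM in WT, 0.044 and 0.0858 in AAB replicate 1, 3.82 and 1.86 in AAB replicate 2, and 5.42 to 12.4 in BBA. As WT had so few reads no fold is given, and reads could be shared with its paralog Rnaset2a. Atp9a divided BBA instead, at 25.7 and 56.1 CPM in replicate 1 and 5.68 and 11.1 in replicate 2, against 4.84 to 7.46 in WT and 22.0 to 37.9 in AAB.

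In a further group all BBA libraries were above every WT and AAB library. H2-Ea-ps, a pseudogene of MHC class II, was at 0.0867, 0.0424, 0.156 and 0.242 CPM in WT, at 0.044, 0.13, 0.257 and 0.371 in AAB, and at 12.5, 22.2, 7.17 and 6.14 in BBA. Gm8909, a class I like gene, was at 1.65 to 3.21 CPM in WT, 1.73 to 3.69 in AAB and 23.0 to 64.8 in BBA. H2-Q2, also of the class I family, was at 4.86 to 8.06, 9.16 to 10.9 and 26.0 to 40.4, and Gm11127 at 1.53 to 2.18, 1.22 to 3.35 and 12.0 to 15.8. These 4 genes lie on chromosome 17 and rose in BBA by 6.49, 4.49, 2.39 and 3.03, and each was lower in AAB than in BBA. For H2-Q2 every AAB library also lay above every WT library, by a difference that was not called. Class I genes are near-identical to one another, so that reads may have been assigned to the wrong member.

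Rab6b, a small GTPase on chromosome 9, was at 0.52, 1.44, 0.545 and 1.70 CPM in WT, at 1.94, 2.08, 1.72 and 2.104 in AAB, and at 16.2, 25.2, 19.9 and 23.2 in BBA, a rise of 4.34 in BBA (SE 0.32, edgeR adjusted p = 2.83e-05). By chromosome, 2.03% to 6.91% of tested genes were called in BBA against WT, 4.62% on chromosome 17 and 4.05% on chromosome 11, which carries the Stat5 genes. Between AAB and BBA the shares ran from 0.309% to 2.39%, the highest on chromosome 13. Chromosome 17 had 1.78% and chromosome 11 had 0.788%, beside 0.839% of all genes.

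**Figure D5:**
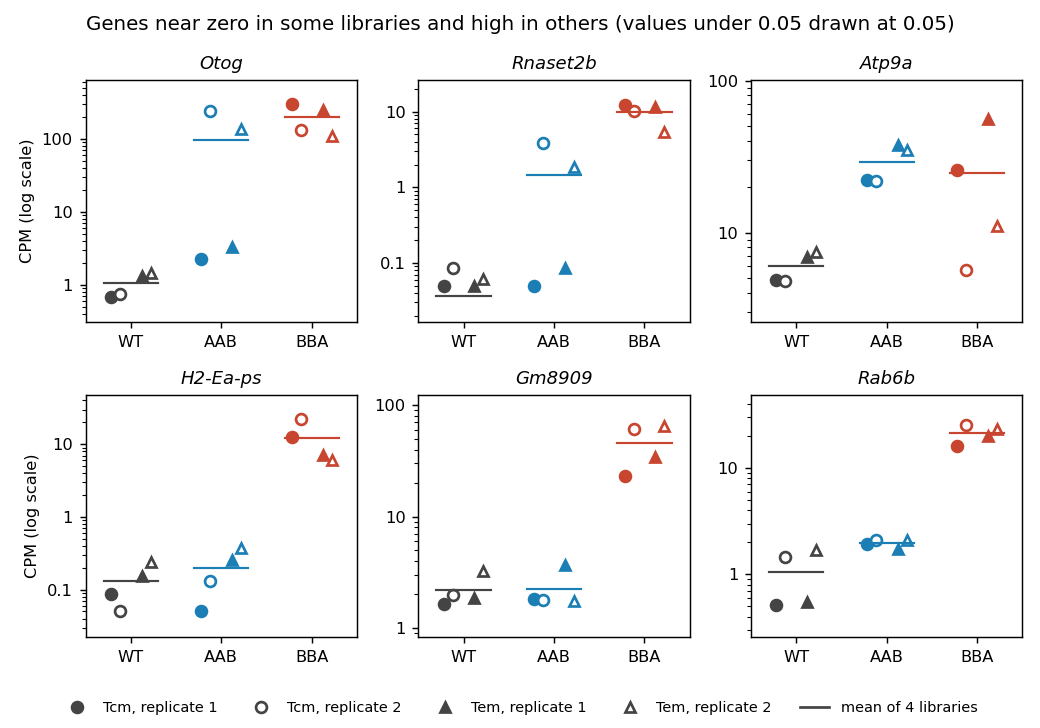
Level in CPM (y axis, log scale, values under 0.05 drawn at 0.05) by genotype of 6 genes near 0 in some libraries and high in others, with circles for Tcm, triangles for Tem, filled symbols for replicate 1, open symbols for replicate 2 and a bar at the mean of 4 libraries. Otog and Rnaset2b are high in the AAB libraries of replicate 2 and low in those of replicate 1, Atp9a divides the BBA replicates, and H2-Ea-ps, Gm8909 and Rab6b are higher in every BBA library than in any other library.

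Several genes were lower in BBA, or in both mutants, in both states. Slc26a11, an anion transporter, was at 53.8, 65.4, 65.6 and 58.3 CPM in WT, at 34.9, 21.3, 45.1 and 24.005 in AAB, and at 10.9, 11.2, 14.1 and 11.7 in BBA, which gave 3 ranges without overlap. It fell by 2.25 in BBA (SE 0.19, edgeR adjusted p = 6.59e-05) and by 0.87 in AAB (SE 0.18, edgeR adjusted p = 0.0304), and the AAB call was lost without any 1 of the WT libraries, AAB Tcm 2 or AAB Tem 2. Igfbp4, a binding protein of insulin-like growth factors, fell by 3.07 in BBA (SE 0.34, edgeR adjusted p = 0.000339) and by 1.97 in AAB (SE 0.32, edgeR adjusted p = 0.0101). Arl4d, a small GTPase, fell by 1.21 in BBA (SE 0.11, edgeR adjusted p = 0.000114) and by 1.38 in AAB (SE 0.11, edgeR adjusted p = 0.00014).

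Cd163l1, of the scavenger receptor family, was at 15.8, 14.6, 12.7 and 7.58 CPM in WT, at 2.69, 4.65, 5.23 and 4.83 in AAB, and at 0.585, 0.511, 0.812 and 1.67 in BBA, and fell by 3.76 in BBA (SE 0.41, edgeR adjusted p = 0.000299). Ms4a6d was at 38.9 to 54.7 CPM in WT, 34.8 to 60.7 in AAB and 5.23 to 15.3 in BBA, and fell by 2.17 in BBA (SE 0.31, edgeR adjusted p = 0.00191). Within BBA, where the myeloid sums were 128, 66.4, 220.2 and 45.5 CPM, its 2 highest libraries were Tem 1 and Tcm 1, and every BBA library lay below every WT library. Ace, the angiotensin-converting enzyme, rose by 3.26 in BBA (SE 0.64, edgeR adjusted p = 0.0103), from 1.73 to 3.48 CPM in WT to 25.4, 9.38, 61.0 and 7.66, and its 2 highest libraries, BBA Tem 1 and BBA Tcm 1, were those with the highest myeloid sums in BBA.

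Some genes passed against WT in AAB and not in BBA. Baiap3, of the Munc13 family, was at 152, 178, 359 and 331 CPM in WT, at 43.0, 91.0, 89.7 and 139 in AAB, and at 135, 115, 304 and 175 in BBA. It fell by 1.35 in AAB (SE 0.23, edgeR adjusted p = 0.0118), gave -0.37 in BBA (SE 0.22), and the difference between AAB and BBA of -0.98 missed the threshold (SE 0.23, edgeR adjusted p = 0.0645). Capn11, a calpain, was at 0.234 to 2.06 CPM in WT, 0.0638 to 1.52 in BBA and 10.7 to 21.9 in AAB, and rose by 4.28 in AAB (SE 0.61, edgeR adjusted p = 0.00475) and was 4.77 higher in AAB than in BBA (SE 0.66, edgeR adjusted p = 0.00447).

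Set against each other, the mutants differed in further genes with no overlap between AAB and BBA. Gbp10, an interferon-induced guanylate-binding protein, was at 19.9, 26.1, 15.7 and 30.5 CPM in WT, at 41.1, 29.5, 44.3 and 34.6 in AAB, and at 11.8, 13.2, 8.86 and 10.6 in BBA. WT lay between the mutants, and the highest WT library exceeded AAB Tcm 2. Gbp10 fell by 0.96 in BBA (SE 0.21, edgeR adjusted p = 0.0184) and was 1.74 higher in AAB than in BBA (SE 0.21, edgeR adjusted p = 0.00177).

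Ifi204, a DNA-binding protein of the interferon-inducible PYHIN family, was at 26.8, 28.3, 30.8 and 28.1 CPM in WT, at 32.8, 30.4, 32.2 and 27.7 in AAB, and at 8.26, 1.47, 10.3 and 2.15 in BBA. Only BBA stood apart from WT, and its replicate 2 was the lower in both states. It fell by 2.26 in BBA (SE 0.43, edgeR adjusted p = 0.00872) and was 2.47 higher in AAB than in BBA (SE 0.43, edgeR adjusted p = 0.019), a call lost without AAB Tcm 1 or AAB Tem 1.

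Arhgap31, a GTPase-activating protein, was at 12.9, 27.8, 27.6 and 45.3 CPM in WT, at 11.005, 10.03, 20.8 and 23.4 in AAB, and at 50.5, 62.0, 87.8 and 66.4 in BBA. BBA was above both other genotypes, and it rose by 1.36 in BBA (SE 0.22, edgeR adjusted p = 0.00375) and was 2.12 lower in AAB than in BBA (SE 0.23, edgeR adjusted p = 0.000871). The transcript 5830411N06Rik was at 15.3 to 26.3 CPM in WT, 9.28 to 21.5 in AAB and 0.585 to 2.47 in BBA, and it fell by 3.83 in BBA (SE 0.38, edgeR adjusted p = 0.000153).

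Other named genes passed in the same direction in both mutants, each against the shared WT libraries. Sycp1, a protein of the meiotic synaptonemal complex, was at 0.0424 to 0.311 CPM in WT, 2.49 to 8.79 in AAB and 3.29 to 7.74 in BBA. Drc1, a component of motile cilia, was at 16.8, 8.87, 7.01 and 4.49 CPM in WT, at no more than 1.82 in AAB and at no more than 0.798 in BBA, and fell by 4.02 in BBA (SE 0.53, edgeR adjusted p = 0.00109) and by 2.89 in AAB (SE 0.47, edgeR adjusted p = 0.0099). Gm10653 was at 4.86 to 5.64 CPM in WT, 18.4 to 41.2 in AAB and 10.4 to 15.8 in BBA, 3 ranges without overlap, with rises of 2.53 in AAB (SE 0.21, edgeR adjusted p = 0.00014) and 1.32 in BBA (SE 0.20, edgeR adjusted p = 0.00267).

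Counted over all genes, the 4 BBA libraries overlapped the 4 WT libraries in all but 1113 genes (10.7%), AAB and WT in all but 912 (8.79%), and AAB and BBA in all but 366 (3.53%).

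Whether the effect of genotype differed between Tcm and Tem was tested as an interaction. For BBA no gene passed by edgeR or by DESeq2, with 96 of 10375 genes at an unadjusted p under 0.05 by edgeR. With the replicate block within states 438 genes were under that limit, and again none passed. The 96 genes are a smaller share than the 0.05 due if no effect differed. The absence of calls thus does not show that the effects were equal. For AAB 1 gene (0.00964%) passed, with 136 at an unadjusted p under 0.05 and 4 called by DESeq2. It was Gzma, the granule protease granzyme A, at 11.5, 9.33, 46.5 and 51.9 CPM in WT, at 32.05, 29.1, 25.2 and 23.9 in AAB, and at 11.8, 9.45, 31.9 and 27.2 in BBA. AAB Tcm lay above and AAB Tem below the WT libraries of the same state, a difference of 1.63 in Tcm and -0.88 in Tem. The interaction was -2.51 (SE 0.24, edgeR adjusted p = 0.0143), and it did not pass in 6 of the 12 fits without 1 library.

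In naive CD8+ cells without cytokine, fitted together with the memory libraries, BBA differed from WT in 222 of 10432 genes (2.13%) and AAB in 8 (0.0767%), each with 2 libraries. Without the replicate block no gene passed the edgeR test of whether the BBA effect differed between memory and naive cells, with 331 genes at an unadjusted p under 0.05, while DESeq2 called 18. With the block 7 genes passed, Il7r (-0.61), Cxcr3 (-1.21), Samd3 (-2.34), Pogk (-1.34), Chst11 (-0.97), Runx2 (-1.45) and Tmevpg1 (-2.27), where negative values mean a lower BBA difference in memory than in naive cells. These genes were named after their values were seen, and edgeR called 1 gene with filterByExpr and 9 with no filter. Bcl2 gave -1.43 in naive BBA cells and -1.65 in memory, Cish -2.05 and -1.95, Bcl6 1.28 and 1.36, and Ikzf2 1.06 and 1.40. The log2 difference of Ly6c2 was -0.28 in naive and -1.29 in memory cells, that of Havcr2 -1.13 and 1.88, and neither change between naive and memory passed with or without the block.

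Set beside memory cells given IL-15, one of the cytokines that the study used to activate STAT5, the BBA effect differed for many genes. BBA differed from WT in 2140 of 10845 genes with IL-15 (19.7%) and in 340 without cytokine (3.14%) when both were fitted over 24 libraries. The effect itself differed in 706 genes (6.51%). Whether the cells without cytokine were cultured is not settled. If they were not, culture and IL-15 cannot be told apart in this comparison. Myc was at 123 to 248 CPM in WT and 61.4 to 210 in BBA without cytokine, and at 190 to 470.1 in WT and 26.2 to 79.8 in BBA with IL-15, so that its BBA difference was -0.40 without and -2.56 with the cytokine.

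Cish gave -1.95 without and -3.03 with IL-15, and the difference of 1.12 passed (SE 0.22, edgeR adjusted p = 0.00343). For Bcl2 the effects were -1.65 and -1.98 and for Lag3 2.28 and 2.25, and no interaction passed for these genes (edgeR adjusted p = 0.128 and 0.9996). Il2rb gave -0.29 and -1.03, and its change of 0.73 passed (SE 0.15, edgeR adjusted p = 0.00391).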

How the data were processed

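Sorted CD8+ T cells were profiled by single-end sequencing of poly(A) RNA. The authors counted reads per gene with htseq-count after tophat2 alignment and deposited the raw counts in 1 table, whose values were used as deposited. The labels name mm9 and the study's methods mm10 as the build, and neither the annotation nor the strand setting is given in the sources used here. No column was left without a sample of this series. Depth ranged from 7010404 to 25612758 counts, which limits precision for genes of few reads, and the 2 libraries of each group differed beyond counting error (chi-square over its degrees of freedom 11.6 to 40.5).

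Weakly expressed genes were removed by a re-implemented Jaccard filter (HTSFilter's rule, 84.9 normalized counts in at least 1 library), which left 10375 genes. Counts were TMM-normalized and fitted with edgeR 4.0.16 (R 4.3.3, quasi-likelihood, legacy form) on genotype plus cell state, over the 12 libraries. The biological coefficient of variation was 15.3%. A gene was called at more than 1.5-fold and a Benjamini-Hochberg adjusted p under 0.05, two-sided. The standard error is the log2 difference divided by the square root of F. Interactions were fitted on group means over 12, 18 (with naive) or 24 (with IL-15) libraries. The steps were tested on simulated data. DESeq2 1.42.0 served as an alternative.

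Same-numbered libraries of different genotypes in the same state deviated together from their group means (correlation 0.295 to 0.4999 in 6 pairs). The numbers may thus pair the samples, although the labels do not say so. Blocked counts are given where they differ, while the SE and adjusted p of each gene come from the fit without the block.

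Named genes were the targeted genes, up to 10 called genes per direction and comparison with the largest change among those of at least 50 mean normalized counts and no overlap between groups, called members of the gene lists (or those of lowest p, to 2 a list) and the genes the study displays; 1 named gene is not reported here. Members and lists were chosen with earlier results of these data known.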

Additional observations from a re-analysis of the deposited data

Results flagged for a closer look

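The effect of genotype differed between conditions for the following genes, each by the test of the difference itself. For AAB, 1 gene differed between Tem and Tcm, Gzma, whose AAB difference from WT in Tem minus that in Tcm was -2.51 on the log2 scale. For BBA, 706 of 10845 genes (6.51%) differed between memory cells without cytokine and with IL-15. If the cells without cytokine were not cultured, culture and IL-15 cannot be told apart in these differences.

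Over all 10845 genes tested, the BBA effect without cytokine minus that with IL-15 was called positive in 459 and negative in 247. Named genes include those that the study displays, chosen on these samples, so their number here is not independent evidence. Among the named genes reported here, of 110 named by rule, the difference was positive for 15 genes. It was 2.90 for Gzmb, 2.15 for Myc, 1.95 for Lta, 1.70 for Slc7a5, 1.70 for Igtp, 1.34 for Mcm5, 1.32 for Eif5a, 1.29 for Socs1, 1.12 for Cish, 0.88 for Gbp6, 0.82 for Eno1, 0.73 for Il2rb, 0.71 for Pim2, 0.66 for Pgam1 and 0.59 for Bax. The Bax result was kept in 8 of 24 fits without 1 library and in 4 of 8 other settings.

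The difference was negative for 4 genes, Arl4d (-1.58), Myb (-1.55), Slc26a11 (-1.07) and Tnfrsf25 (-0.76). Myb rose in BBA both without cytokine (0.86) and with IL-15 (2.39). The Slc26a11 result was kept in 11 of 24 fits without 1 library and in 5 of 8 other settings.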

How the results depend on the processing

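No named gene called in a comparison reversed its direction there, and the cause of the moves below was not tested unless the setting itself gives it (fewer samples or a stricter limit). Counts are given for BBA against WT, AAB against WT and AAB against BBA, in that order. With the replicate number as a block within states, 724, 355 and 218 genes were called, and with a block across states 638, 259 and 213, and every named call was kept under both blocks. Calls of more than 2-fold numbered 223 in BBA and 70 in AAB, and Bonferroni adjustment left 52, 20 and 21. With no filter the counts were 714, 213 and 170, and DESeq2 called 242 in AAB and 198 between mutants. Summing Tcm and Tem per replicate number gave 27, 2 and 5, Tcm alone 28, 4 and 4, Tem alone 21, 2 and 2, and 1 fit over 48 libraries 273, 65 and 50. Without the 4 libraries of highest myeloid sums, chosen after seeing the data, 203 genes differed between the mutants, and in BBA against WT the split moved to 189 higher and 207 lower from 253 and 157. The mutants are then compared as AAB replicate 1 against BBA replicate 2, so that genotype and replicate number cannot be told apart in the 203 genes.

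Leaving out single libraries gave 267 to 451 in BBA (lowest without WT Tem 1), 69 to 151 in AAB (69 without WT Tem 1, 70 without AAB Tem 1 and 71 without AAB Tem 2) and 41 to 86 between mutants (41 without AAB Tem 1, 51 without BBA Tcm 1 and 52 without AAB Tcm 1). The state interaction of AAB gave 0 to 1 and 4 by DESeq2. The memory against naive interaction gave 0 to 2, with 1 under filterByExpr, 9 with no filter, 18 by DESeq2 and 7 with the block. The cytokine interaction gave 238 at more than 2-fold, 119 under Bonferroni, 461 under filterByExpr and 1268 with the block. Of named calls in BBA, 66 in all, 17 were kept with the states summed. Depth limits genes near 0 in WT.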

Other observations

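Genes outside the rule, chosen after their values were seen, also separated the genotypes. Smc6, a subunit of a structural maintenance of chromosomes complex, was at 651, 667, 406 and 419 CPM in WT, at 499, 622, 358 and 360.1 in AAB, and at 133, 167, 129.8 and 108 in BBA, and fell by 1.87 in BBA (SE 0.10, edgeR adjusted p = 2.41e-06). BBA lay below every other library. Plac8 was at 47.7 to 103 CPM in WT, 51.8 to 99.1 in AAB and 27.0 to 42.8 in BBA, and fell by 0.90 in BBA (SE 0.16, edgeR adjusted p = 0.00651).

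Il18r1, a chain of the receptor for IL-18, was at 239, 189, 357 and 244 CPM in WT, at 105, 93.9, 151 and 111 in AAB, and at 41.4, 59.9, 104 and 134 in BBA. Both mutants lay below WT, by 1.06 in AAB and 1.57 in BBA on the log2 scale, and overlapped each other. Tspan9, a tetraspanin, was higher in both, by 2.04 in AAB (SE 0.21, edgeR adjusted p = 0.000971) and 2.25 in BBA (SE 0.22, edgeR adjusted p = 0.000127), with 12.6 to 33.6 CPM in WT and 55.8 to 188 in the mutants.

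In naive CD8+ cells Ifi44 was at 4.63 and 3.86 CPM in WT, 27.5 and 15.1 in AAB, and 6.55 and 4.49 in BBA, with a difference of 2.34 in AAB that did not pass (edgeR adjusted p = 0.169). Il7r was at 588 and 680.2 CPM in naive WT and at 955 and 937 in naive BBA, a rise of 0.63 (edgeR adjusted p = 0.00254).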
